A study of Homo sapiens with 6 samples.

Results

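Genes of interferon signalling and interferon-stimulated genes were followed in A375, an established human melanoma cell line, after treatment with fluvastatin. The set held 53 genes fixed by name, from receptors to antiviral effectors, and each had 1 row in the deposited table of 29790 genes. Fluvastatin belongs to the statins, inhibitors of HMG-CoA reductase, the entry enzyme of the mevalonate pathway. The treated group held 3 libraries from cells exposed to 3 µM fluvastatin for 24 h, and the control group held 3 libraries from untreated cells grown side by side. Libraries carry the replicate numbers 0, 1 and 2 in each group. The labels call the libraries triplicates and do not say whether each came from its own culture. The p-values therefore reflect spread among these 6 libraries, which could be technical. Values are FPKM, fragment numbers divided by transcript length and by the library's mapped fragments.

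Interferons are secreted alarm signals of infection. Type I interferons bind a receptor that holds IFNAR1, interferon gamma binds one that holds IFNGR1, and both activate JAK kinases, which phosphorylate STAT proteins. STAT2 joins IRF9 and a partner STAT in the factor ISGF3, which binds the interferon-stimulated response element of antiviral genes such as the IFIT, OAS and MX families. Many tumour cells keep part of this programme on at a low level without added interferon.

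The libraries were not equally deep. The steps between low values gave relative depths of 1.27, 1.51 and 1.41 for fluvastatin replicates 0, 1 and 2, and of 1, 1.19 and 0.966 for control replicates 0, 1 and 2. Each treated library exceeded all controls in depth, so effects of depth and of treatment cannot be told apart. Absolute numbers of fragments are unknown. Of 7 melanocyte-lineage markers 5 had a row, and MITF and SOX10 were above 5 FPKM in every library, while PMEL, TYRP1 and DCT were below 1 FPKM in every library. The 5 summed to 73.6 to 83.1 FPKM in fluvastatin libraries and 28.5 to 33.6 FPKM in controls. That difference was SOX10 (72.0 ± 4.33 FPKM in fluvastatin libraries and 23.3 ± 2.99 FPKM in controls, adjusted p = 0.000466), whereas MITF was at 6.68 ± 0.505 FPKM in fluvastatin libraries and 7.18 ± 0.556 FPKM in controls (adjusted p = 0.529). Among 3 neural crest or dedifferentiation markers SOX9 was 1.74-fold lower (adjusted p = 0.00142), NGFR was 1.54-fold higher (adjusted p = 0.0122) and AXL did not pass, with sums of 354.7 to 374.4 FPKM in fluvastatin libraries and 377.3 to 402.3 FPKM in controls. Fibroblast markers summed to 0.695 to 0.854 FPKM in fluvastatin libraries and 1.05 to 1.29 FPKM in controls, each of the 3 below 1 FPKM throughout. Epithelial markers, nearly all KRT8 and KRT18, summed to 434.7 to 483.3 FPKM in fluvastatin libraries and 481 to 548 FPKM in controls. Those 2 genes moved in opposite directions. KRT8 was 1.45-fold higher (adjusted p = 0.00977) and KRT18 was 1.26-fold lower (adjusted p = 0.0457, lost without control replicate 0 at 0.12). SOX10 shares exon positions with POLR2F, and KRT8 with KRT18, on opposite strands. Without a stated strand setting, reads of those positions cannot be told apart. The 3 endothelial markers summed to at most 0.188 FPKM. The 3 leukocyte markers with a row summed to 2.29 to 2.71 FPKM in fluvastatin libraries and 0.506 to 1.31 FPKM in controls. LYZ made up nearly all of that sum, and CD14 and NKG7 stayed below 1 FPKM in all libraries. The part of these marker lists in the results was not tested. In such bulk samples fewer expressing cells and less RNA per cell cannot be told apart.

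The members moved in both directions and mostly by less than 2-fold. Testing with limma on log2(FPKM + 1) covered every gene that reached 1 FPKM in 3 or more libraries, 44 of the 53 members and 14344 genes in all. At a Benjamini-Hochberg adjusted p below 0.05 over all genes, 6 members rose (13.6%, against 14.1% of all genes tested), 10 fell (22.7%, against 13.6% of all genes tested) and 28 did not pass. Together 36.4% of the tested members passed, against 27.7% of all genes tested. The share of members that rose is near that of all genes. Of the 10 that fell, 8 reached 1 FPKM in all libraries, while IFIT2 and XAF1 did so in 1 fluvastatin and all 3 control libraries. Those 2 were tested only because their controls were high, so the share that fell is given as a description. The median log2 fold change was 0.07 over the tested members and -0.01 over all genes tested. ISG20 and SAMD9 rose at least 2-fold, and IFI44, IFI44L and XAF1 fell at least 2-fold, all by the ratio of mean FPKM.

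**Figure D1:**
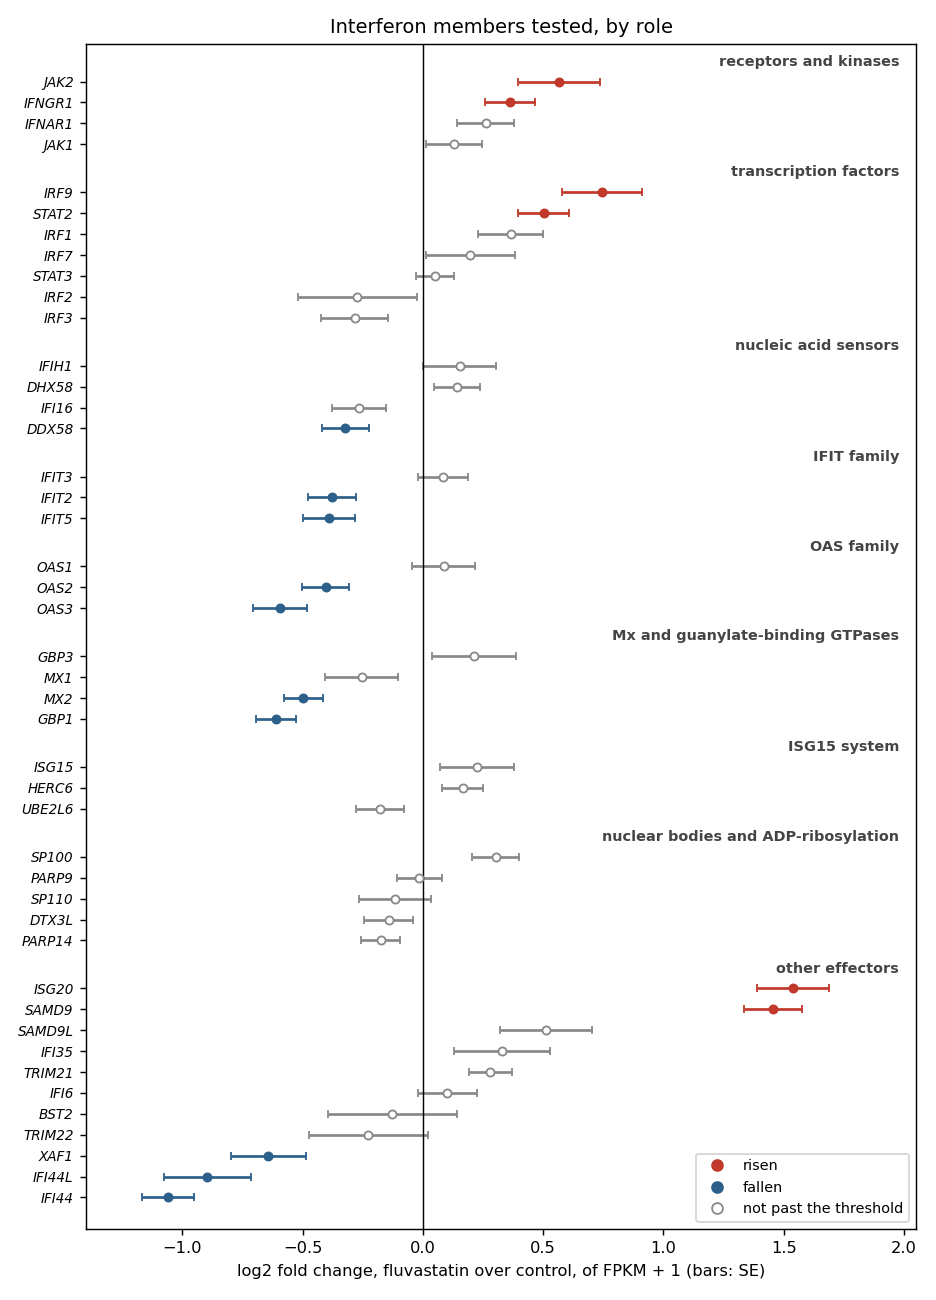
Log2 fold change of FPKM + 1, fluvastatin over control, for the 44 members tested, grouped by role (points: estimate, bars: SE; 3 libraries a group). The 6 members that rose reach 1.54 (ISG20) and the 10 that fell reach -1.06 (IFI44). The ISG15 system (3 genes tested) and the nuclear body genes (5 tested) hold no filled point.

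The groups did not overlap in 24 of the 44 members (54.5%, against 44.8% of all genes tested), with 12 above all controls (21.9% of all genes) and 12 below (22.9% of all genes). All 16 calls were lost when the estimated depth of each library was a term in the fit, which also left 61 genes of the whole table past the threshold. Leaving out 1 library at a time, ISG20 and SAMD9 among those that rose and MX2, OAS3, GBP1, IFI44 and IFI44L among those that fell passed in each of the 6 fits. The number of members that rose was 3, 3 and 2 without fluvastatin replicate 0, 1 or 2, and 4 without control replicate 1. The number that fell was 5 without control replicate 0, control replicate 1 or fluvastatin replicate 0.

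Members were expressed at low to middle levels. The mean over the 6 libraries was highest for SP100 at 54.7 FPKM, followed by IRF3 at 49.7 and IFI16 at 45.5 FPKM. The median over the tested members was 8.91 FPKM, against 13.4 FPKM over all genes tested. The 9 members below the filter were IFIT1, OASL, GBP2, USP18, HERC5, IFI27, CMPK2, RSAD2 and EPSTI1. RSAD2 (viperin, an antiviral radical enzyme) and EPSTI1 were each listed at 0 in 4 of the 6 libraries.

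**Figure D2:**
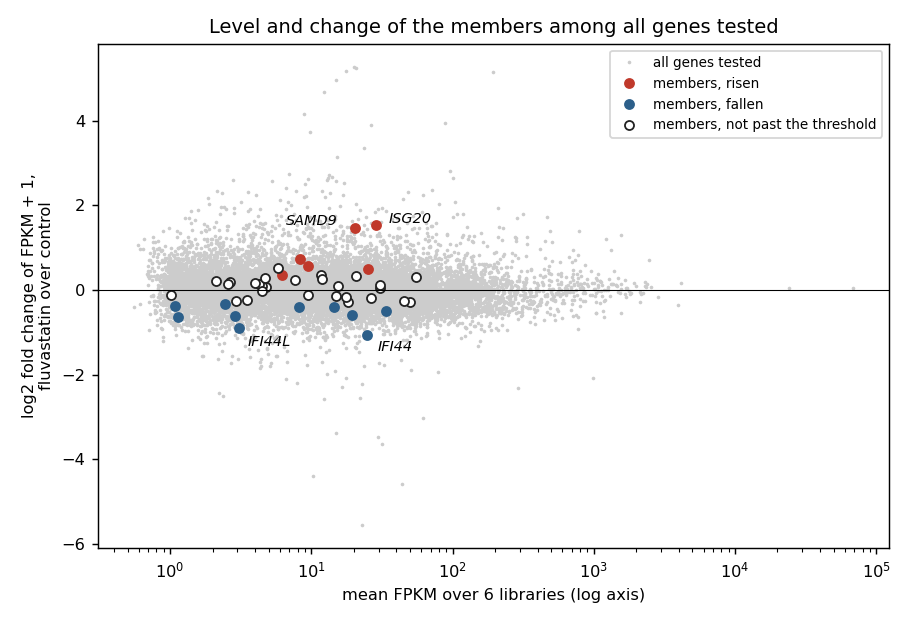
Log2 fold change of FPKM + 1, fluvastatin over control, against mean FPKM over the 6 libraries on a log axis, for all 14344 genes tested (grey) and the 44 members tested (large points). The members lie between -1.06 and 1.54 at means of up to 54.7 FPKM, inside the spread of the other genes, with ISG20 and SAMD9 at the top and IFI44 at the bottom.

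Of the 4 receptor and kinase genes 2 rose and 0 fell, where 14.1% of all genes tested rose and 13.6% fell. The counts by role, here and below, come from few genes each. Whether they differ from the shares over all genes was not tested. JAK2, the kinase paired with the interferon gamma receptor, was at 10.9, 11.1 and 12.5 FPKM in fluvastatin replicates 0, 1 and 2, against 9.04, 5.54 and 8.10 FPKM in control replicates 0, 1 and 2. The groups did not overlap, and control replicate 1 lay below the other controls. JAK2 was 1.52-fold higher (log2 fold change 0.57 ± 0.17 SE, adjusted p = 0.0492). That call lay at the edge of the threshold and was lost without control replicate 1 (0.0708) or 2 (0.0675) or treated replicate 0 (0.0965), 1 (0.0999) or 2 (0.133) (alternatives spanned 0.0316 to 0.167). IFNGR1, the ligand-binding chain of the interferon gamma receptor, was at 6.78, 6.70 and 7.62 FPKM in fluvastatin libraries, against 5.07, 4.77 and 5.95 FPKM in controls. The groups were apart by less than 1 FPKM at their nearest values. IFNGR1 was 1.34-fold higher (log2 fold change 0.36 ± 0.11 SE, adjusted p = 0.0451) but did not pass without control replicate 0 (0.109) or 1 (0.127) or treated replicate 0 (0.0948), 1 (0.0821) or 2 (0.126) (alternatives spanned 0.0292 to 0.261).

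IFNAR1, a chain of the type I receptor, was at 12.1, 13.6 and 13.5 FPKM in fluvastatin libraries, against 9.11, 11.4 and 11.9 FPKM in controls (adjusted p = 0.152). Here too every treated value lay above every control, but fluvastatin replicate 0 and control replicate 2 differed little. JAK1, the kinase shared by both receptors, was at 31.0, 33.6 and 31.1 FPKM in fluvastatin libraries, against 26.6, 34.0 and 27.2 FPKM in controls (adjusted p = 0.460). The groups overlapped for JAK1. RAVER2, which shares exon positions with JAK1 on the opposite strand, was at 5.06 to 5.77 FPKM in fluvastatin libraries and 8.28 to 8.31 FPKM in controls (adjusted p = 0.00622), and without a stated strand setting reads of the shared positions cannot be told apart.

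Of the 7 transcription factors 2 rose, where 14.1% of all genes tested did, and both belong to ISGF3. STAT2 was at 28.9, 29.5 and 29.9 FPKM in fluvastatin libraries, against 18.1, 20.9 and 22.8 FPKM in controls. Treated values were closely grouped and all above the controls. STAT2 (chromosome 12, 56341597 to 56360155, minus strand) was 1.43-fold higher (log2 fold change 0.50 ± 0.10 SE, adjusted p = 0.0155) but did not pass without fluvastatin replicate 2 (0.0504; range 0.00699 to 0.331). IRF9, the DNA-binding part of ISGF3, was at 10.4, 10.6 and 10.9 FPKM in fluvastatin libraries, against 6.88, 4.33 and 6.95 FPKM in controls. As with JAK2, control replicate 1 was the lowest library. IRF9 (chromosome 14, 24161053 to 24166565, plus strand) was 1.75-fold higher (log2 fold change 0.74 ± 0.17 SE, adjusted p = 0.0193) but did not pass without fluvastatin replicate 0 (0.0547), 1 (0.0551) or 2 (0.0589) (alternatives spanned 0.0101 to 0.114).

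**Figure D3:**
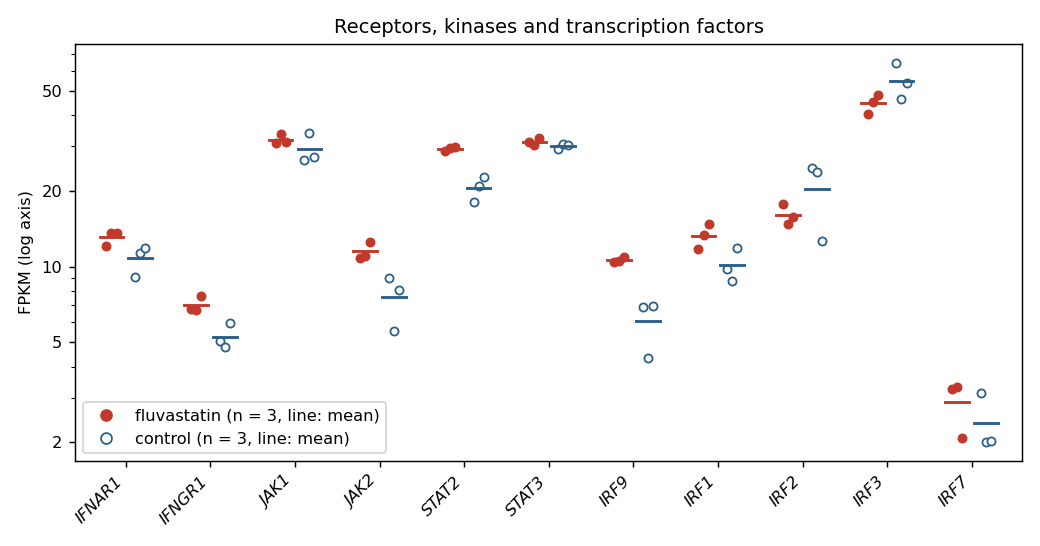
FPKM on a log axis of the 11 receptor, kinase and transcription factor members in each library (points: libraries, lines: means of 3). JAK2, IFNGR1, IFNAR1, STAT2 and IRF9 have every fluvastatin library above every control, as do 21.9% of all genes tested. The IRF2 controls are spread between 12.7 and 24.5 FPKM.

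The other transcription factors did not pass. IRF1, an activator induced by interferon gamma, was at 11.8, 13.3 and 14.7 FPKM in fluvastatin libraries, against 9.75, 8.78 and 11.8 FPKM in controls, with a narrow overlap (log2 fold change 0.36 ± 0.13 SE, adjusted p = 0.0893). It passed without control replicate 2 (0.0416; range 0.0416 to 0.382), the highest control. IRF2, which competes with IRF1 as a repressor, was at 17.7, 14.7 and 15.7 FPKM in fluvastatin libraries, against 24.5, 23.8 and 12.7 FPKM in controls (adjusted p = 0.456). Control replicate 2 lay below every treated library, and without it IRF2 passed with a lower level after fluvastatin (log2 fold change -0.56, adjusted p = 0.0195; range 0.0195 to 0.779). IRF3 and IRF7 switch on interferon genes once a sensor is engaged. IRF3 was at 40.4, 45.2 and 48.1 FPKM in fluvastatin libraries, against 64.4, 46.4 and 53.4 FPKM in controls (adjusted p = 0.181). It shares exon positions with BCL2L12 on the opposite strand, which was at 27.5 to 33.0 FPKM in fluvastatin libraries and 41.9 to 44.3 FPKM in controls (adjusted p = 0.0109). IRF7 was at 3.27, 3.33 and 2.08 FPKM in fluvastatin libraries, against 3.14, 2.01 and 2.03 FPKM in controls (adjusted p = 0.475). STAT3, which serves the interleukin-6 family, was at 31.2, 30.4 and 32.6 FPKM in fluvastatin libraries, against 29.4, 30.8 and 30.5 FPKM in controls (adjusted p = 0.675).

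Among the 4 nucleic acid sensors 1 fell, where 13.6% of all genes tested did. DDX58 encodes RIG-I, the sensor of viral RNA ends, and was at 1.88, 2.04 and 2.22 FPKM in fluvastatin libraries, against 3.01, 2.49 and 2.95 FPKM in controls. The groups did not overlap at these low levels. DDX58 was 1.37-fold lower (log2 fold change -0.32 ± 0.10 SE, adjusted p = 0.0486) but did not pass without control replicate 0 (0.126), 1 (0.0536) or 2 (0.103) and without fluvastatin replicate 0 (0.143), 1 (0.111) or 2 (0.0758) (alternatives spanned 0.0384 to 0.631). IFI16, a DNA sensor, averaged 41.2 ± 4.29 FPKM in fluvastatin libraries and 49.7 ± 4.47 FPKM in controls (SD, n = 3 each; adjusted p = 0.130). The other RNA helicases were low and did not pass, with IFIH1 (MDA5) at 2.76 ± 0.461 FPKM in fluvastatin libraries and 2.40 ± 0.576 FPKM in controls (adjusted p = 0.505). DHX58 (LGP2), their regulator, was at 4.51 ± 0.495 FPKM in fluvastatin libraries and 3.98 ± 0.131 FPKM in controls (adjusted p = 0.314).

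IFIT proteins bind foreign RNA and block its translation. Of 3 tested members IFIT5 fell, IFIT3 did not pass, and IFIT2 was called lower but was tested only through its controls. By comparison, 13.6% of all genes tested fell. IFIT5, the most abundant of them here, was at 11.0, 12.5 and 14 FPKM in fluvastatin libraries, against 16.6, 15.8 and 17.6 FPKM in controls. Every treated library lay below every control. IFIT5 was 1.33-fold lower (log2 fold change -0.39 ± 0.11 SE, adjusted p = 0.0388) but did not pass without control replicate 0 (0.0842), 1 (0.0711) or 2 (0.087) or treated replicate 0 (0.11) or 1 (0.092) (alternatives spanned 0.0259 to 0.414). IFIT2 was at 0.660, 1.01 and 0.783 FPKM in fluvastatin libraries, against 1.38, 1.38 and 1.31 FPKM in controls. In only 1 treated library did it reach 1 FPKM. IFIT2 was 1.66-fold lower by mean FPKM (log2 fold change -0.38 ± 0.10 SE, adjusted p = 0.0319) but did not pass without control replicate 0 (0.0787), 1 (0.0845) or 2 (0.0557) or treated replicate 0 (0.0988) or 2 (0.0893) (alternatives spanned 0.0255 to 0.211). IFIT2 shares exon positions with LIPA on the opposite strand, which did not pass (adjusted p = 0.266). IFIT3 was at 4.97 ± 0.519 FPKM in fluvastatin libraries and 4.64 ± 0.374 FPKM in controls (adjusted p = 0.602). IFIT1 was below the filter, at 0.735, 0.734 and 0.667 FPKM in fluvastatin libraries, against 1.25, 1.3 and 0.993 FPKM in controls.

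OAS enzymes make oligoadenylates that activate RNase L, and 2 of 3 tested members fell, where 13.6% of all genes tested did. OAS3, which has the longest protein of the family, was at 16.3, 15.8 and 13.3 FPKM in fluvastatin libraries, against 22.4, 25.8 and 22.0 FPKM in controls. The groups were well apart, and OAS3 (chromosome 12, 112938352 to 112973249, plus strand) was 1.54-fold lower (log2 fold change -0.60 ± 0.11 SE, adjusted p = 0.0113). OAS2 was at 6.39, 7.28 and 6.90 FPKM in fluvastatin libraries, against 9.50, 10.2 and 8.56 FPKM in controls. It was 1.37-fold lower (log2 fold change -0.40 ± 0.10 SE, adjusted p = 0.0251) but did not pass without control replicate 0 (0.0641) or 1 (0.0774) or treated replicate 0 (0.083) or 2 (0.0671) (alternatives spanned 0.0156 to 0.143). OAS1 stood at 4.63 ± 0.828 FPKM in fluvastatin libraries and 4.28 ± 0.424 FPKM in controls (adjusted p = 0.663). OASL, an OAS-like protein without the enzyme's activity, was below the filter, with 0.809, 1.06 and 0.834 FPKM in fluvastatin libraries, against 0.309, 0.547 and 0.491 FPKM in controls. It was the only one of the 4 with every treated library above every control, as in 21.9% of all genes tested. Its levels were around 1 FPKM or less.

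The dynamin-like Mx GTPases and the guanylate-binding proteins gave 2 falls among 4 tested members, where 13.6% of all genes tested fell. MX2, which blocks viruses at the nuclear pore, was at 28.5, 28.3 and 27.1 FPKM in fluvastatin libraries, against 40.9, 38.1 and 40.6 FPKM in controls. Both groups were tight and far from each other. MX2 (chromosome 21, 41361943 to 41409390, plus strand) was 1.43-fold lower (log2 fold change -0.50 ± 0.08 SE, adjusted p = 0.00676). GBP1, which coats bacteria inside cells, was at 2.11, 1.88 and 2.2 FPKM in fluvastatin libraries, against 3.62, 3.80 and 3.60 FPKM in controls. It was 1.78-fold lower (log2 fold change -0.61 ± 0.08 SE, adjusted p = 0.00378), with no overlap. MX1, the cytoplasmic Mx protein, averaged 2.63 ± 0.73 FPKM in fluvastatin libraries and 3.28 ± 0.252 FPKM in controls (adjusted p = 0.261). GBP3 averaged 2.32 ± 0.335 FPKM in fluvastatin libraries and 1.90 ± 0.631 FPKM in controls (adjusted p = 0.417), and GBP2 was below 1 FPKM in every library.

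The ISG15 system attaches a ubiquitin-like protein to other proteins, and 0 of its 3 tested members passed, where 27.7% of all genes tested did. ISG15 itself was at 8.39 ± 1.33 FPKM in fluvastatin libraries and 7.04 ± 1.23 FPKM in controls (adjusted p = 0.319). Its conjugating enzyme UBE2L6 was at 24.9 ± 1.85 FPKM in fluvastatin libraries and 28.3 ± 2.00 FPKM in controls (adjusted p = 0.229). HERC6, a ligase for ISG15 in mouse, was at 4.27 ± 0.207 FPKM in fluvastatin libraries and 3.70 ± 0.238 FPKM in controls (adjusted p = 0.197). HERC5, the human ligase, and USP18, which removes ISG15 and restrains the type I receptor, were below the filter. In both every fluvastatin library lay below every control, as in 22.9% of all genes tested. USP18 averaged 0.821 ± 0.141 FPKM in fluvastatin libraries and 1.15 ± 0.163 FPKM in controls.

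Genes of nuclear bodies and of ADP-ribosylation gave 0 calls among 5 members, where 27.7% of all genes tested were called. Their log2 fold changes lay between -0.18 and 0.30. SP100, a component of PML nuclear bodies, came closest, at 60.4 ± 2.04 FPKM in fluvastatin libraries and 49.0 ± 4.89 FPKM in controls (adjusted p = 0.0644). It passed in 4 alternatives, among them the fit without control replicate 0 (0.0415; range 0.0338 to 0.383). SP110, its relative, averaged 9.05 ± 1.37 FPKM in fluvastatin libraries and 9.90 ± 1.61 FPKM in controls (adjusted p = 0.606). PARP9 and DTX3L form a complex of an ADP-ribosyltransferase relative and a ubiquitin ligase, and their genes share exon positions. DTX3L averaged 14.1 ± 1.53 FPKM in fluvastatin libraries and 15.7 ± 0.832 FPKM in controls (adjusted p = 0.351), and PARP9 averaged 4.47 ± 0.455 FPKM in fluvastatin libraries and 4.52 ± 0.151 FPKM in controls (adjusted p = 0.922). PARP14, a mono-ADP-ribosyltransferase, averaged 16.5 ± 0.671 FPKM in fluvastatin libraries and 18.8 ± 0.606 FPKM in controls (adjusted p = 0.156).

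The largest changes of the set were among the remaining effectors, where 2 rose and 3 fell of 11 tested, with XAF1 counted among the falls through its high controls. Of all genes tested 14.1% rose and 13.6% fell. ISG20, an exonuclease that degrades single-stranded RNA, was at 40.4, 50.2 and 39.6 FPKM in fluvastatin libraries, against 12.3, 16.9 and 13.7 FPKM in controls. The lowest treated library was more than 20 FPKM above the highest control. ISG20 (chromosome 15, 88636153 to 88656483, plus strand) was 3.03-fold higher (log2 fold change 1.54 ± 0.15 SE, adjusted p = 0.0012). SAMD9, a growth-restraining antiviral protein, was at 27.5, 28.1 and 35.1 FPKM in fluvastatin libraries, against 11.2, 9.62 and 10.2 FPKM in controls. Fluvastatin replicate 2 was the highest, and the groups were far apart. SAMD9 (chromosome 7, 93099513 to 93118023, minus strand) was 2.92-fold higher (log2 fold change 1.45 ± 0.12 SE, adjusted p = 7.53e-04).

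In the other direction, IFI44, an interferon-induced protein known to restrain cell growth, was at 15.6, 16.4 and 14.7 FPKM in fluvastatin libraries, against 36.0, 29.3 and 35.6 FPKM in controls. Its treated libraries were tightly grouped and below every control. IFI44 (chromosome 1, 78649796 to 78664078, plus strand) was 2.16-fold lower (log2 fold change -1.06 ± 0.11 SE, adjusted p = 0.00145). IFI44L, its paralog, was at 1.59, 1.51 and 2.39 FPKM in fluvastatin libraries, against 3.19, 4.56 and 5.11 FPKM in controls. It was 2.34-fold lower by mean FPKM (log2 fold change -0.90 ± 0.18 SE, adjusted p = 0.0140) with no overlap. XAF1, which counters the apoptosis inhibitor XIAP, was at 0.542, 0.409 and 1.09 FPKM in fluvastatin libraries, against 1.57, 1.72 and 1.46 FPKM in controls. Like IFIT2 it entered the test through its controls. XAF1 was 2.33-fold lower by mean FPKM (log2 fold change -0.64 ± 0.16 SE, adjusted p = 0.0251) but did not pass without control replicate 0 (0.058) or 1 (0.0714) or treated replicate 0 (0.0778) or 1 (0.0671) (alternatives spanned 0.0104 to 0.331).

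**Figure D4:**
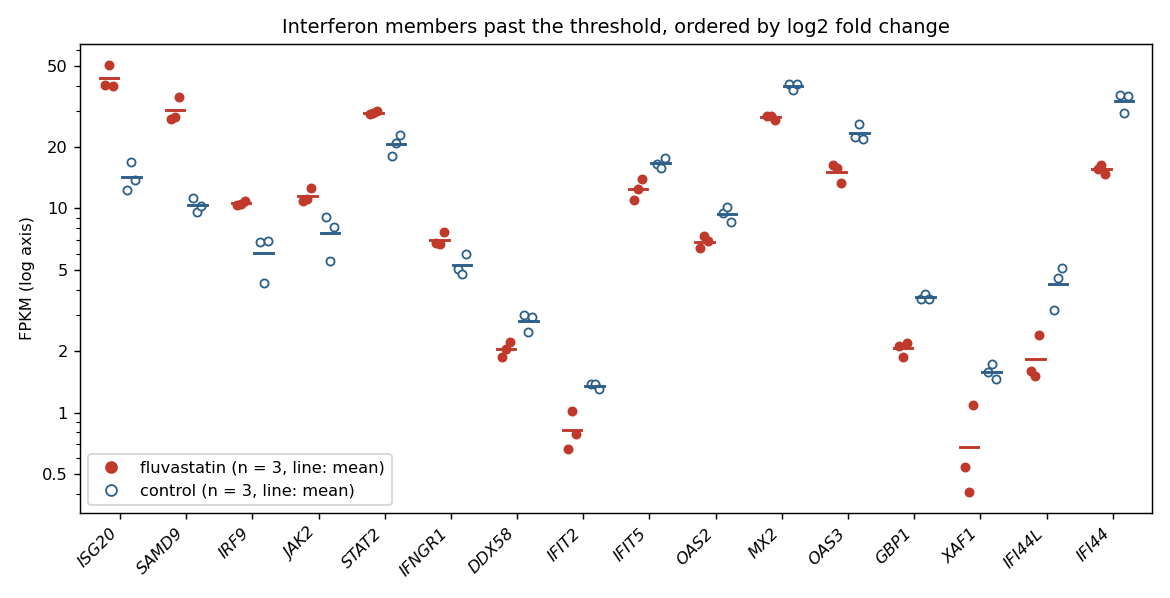
FPKM on a log axis of the 16 members past the threshold in each library (points: libraries, lines: means of 3), ordered from the largest rise to the largest fall. In every one of them the fluvastatin and control libraries do not overlap, with the widest gaps at ISG20, SAMD9 and IFI44. The members shown were picked by the test on these same values, so the lack of overlap is no further support.

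The other 6 tested effectors did not pass. TRIM21, a cytosolic antibody receptor and ubiquitin ligase, was at 5.27 ± 0.341 FPKM in fluvastatin libraries and 4.16 ± 0.242 FPKM in controls (adjusted p = 0.0568) and passed with a pseudocount of 0.1 (0.0468; range 0.0468 to 0.467). SAMD9L, the paralog of SAMD9, averaged 6.95 ± 0.406 FPKM in fluvastatin libraries and 4.70 ± 1.4 FPKM in controls (adjusted p = 0.0939). IFI6, a membrane protein that protects against flaviviruses, was at 16.0 ± 1.01 FPKM in fluvastatin libraries and 14.9 ± 2.13 FPKM in controls (adjusted p = 0.586). IFI35, the antiviral ubiquitin ligase TRIM22 and the virus tether BST2 had adjusted p of 0.268, 0.540 and 0.763. IFI27 and CMPK2, a mitochondrial nucleotide kinase, were below the filter, with CMPK2 at 0.197 ± 0.0637 FPKM in fluvastatin libraries and 0.561 ± 0.360 FPKM in controls.

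Promoters of 5 members that passed, those with the largest changes by the log2 scale, are shown with any letter matches to the core of the element that ISGF3 binds. The sequences are RefSeq windows on GRCh38.p14, from 250 bases before to 50 bases after a transcript start, written 5′ to 3′ along the gene. Capitals mark matches on either strand to the core of the interferon-stimulated response element (GAAA, any 2 bases, GAAA) or to the gamma-activated site (TTC, any 3 bases, GAA), where STAT dimers bind.

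ISG20, chr15:88638766-88639065, plus strand: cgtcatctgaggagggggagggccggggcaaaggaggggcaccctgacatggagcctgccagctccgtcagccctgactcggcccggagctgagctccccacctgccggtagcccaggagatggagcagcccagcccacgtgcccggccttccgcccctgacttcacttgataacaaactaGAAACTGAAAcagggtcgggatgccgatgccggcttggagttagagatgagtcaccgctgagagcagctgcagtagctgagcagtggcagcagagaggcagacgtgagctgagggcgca

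SAMD9, chr7:93117930-93118229, minus strand: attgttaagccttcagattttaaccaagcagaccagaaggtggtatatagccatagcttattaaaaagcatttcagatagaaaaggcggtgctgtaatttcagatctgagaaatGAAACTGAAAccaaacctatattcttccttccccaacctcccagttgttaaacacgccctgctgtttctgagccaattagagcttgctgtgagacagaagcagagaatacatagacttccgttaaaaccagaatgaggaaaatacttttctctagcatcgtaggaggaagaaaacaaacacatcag

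IFI44, chr1:78649539-78649838, plus strand: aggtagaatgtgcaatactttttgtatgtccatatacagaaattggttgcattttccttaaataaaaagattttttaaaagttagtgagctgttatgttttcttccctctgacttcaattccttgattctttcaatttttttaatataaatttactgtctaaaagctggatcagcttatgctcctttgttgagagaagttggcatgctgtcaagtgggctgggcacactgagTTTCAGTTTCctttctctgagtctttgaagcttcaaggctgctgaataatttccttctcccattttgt

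IFI44L, chr1:78620198-78620497, plus strand: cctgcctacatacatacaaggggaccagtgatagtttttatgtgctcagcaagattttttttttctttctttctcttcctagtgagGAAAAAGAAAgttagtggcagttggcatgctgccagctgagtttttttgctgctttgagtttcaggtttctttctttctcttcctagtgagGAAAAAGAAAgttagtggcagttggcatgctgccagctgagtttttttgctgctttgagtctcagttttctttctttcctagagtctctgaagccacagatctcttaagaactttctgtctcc

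IRF9, chr14:24161015-24161314, plus strand: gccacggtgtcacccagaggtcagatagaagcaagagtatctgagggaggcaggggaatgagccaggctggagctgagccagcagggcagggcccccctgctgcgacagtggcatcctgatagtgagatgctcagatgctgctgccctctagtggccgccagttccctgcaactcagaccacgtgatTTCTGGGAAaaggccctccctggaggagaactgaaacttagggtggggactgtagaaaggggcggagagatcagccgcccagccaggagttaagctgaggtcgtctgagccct

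ISG20 and SAMD9, which rose, hold GAAACTGAAA, starting 69 and 136 bases before the transcript start. IFI44, which fell, holds TTTCAGTTTC, the same letters on the other strand, starting 18 bases before its start. IFI44L, which also fell, holds GAAAAAGAAA at 164 and at 73 bases before the start. The IRF9 window holds no match to the response element core and 1 gamma-activated site, TTCTGGGAA, starting 63 bases before the start. Genes that changed in opposite directions thus hold the same core letters.

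Windows could be matched for 42 of the 53 members and 9986 of the genes tested. The response element core was in at least 1 window of 23 members (54.8%), against 395 of the 9986 genes (3.96%). It was found in 2 of 6 members that rose, 5 of 7 that fell and had a window, 11 of 23 that did not pass and 5 of 6 below the filter. Gamma-activated sites were in 11 members (26.2%), against 8.80% of genes, with 1 of 6 among those that rose and 0 of 7 among those that fell. A match is a run of letters and not a shown binding site, and the 2 motifs can share bases.

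Several members lie side by side in the genome, some with calls in both neighbours and some with a call in 1 of them. IFI44L and IFI44 lie 3.65 kb apart on chromosome 1 and both fell, with log2 fold changes of -0.90 and -1.06. OAS3 and OAS2 lie 5.15 kb apart on chromosome 12 and both fell, whereas OAS1, 5.13 kb from OAS3 on the other side, did not pass (0.09). SAMD9 rose by 1.45 on the log2 scale while SAMD9L, 12.0 kb away on chromosome 7, was at 0.51. MX2 fell and MX1, 10.9 kb away, was at -0.25. GBP1 fell and GBP3, 29.4 kb away, was at 0.21.

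**Figure D5:**
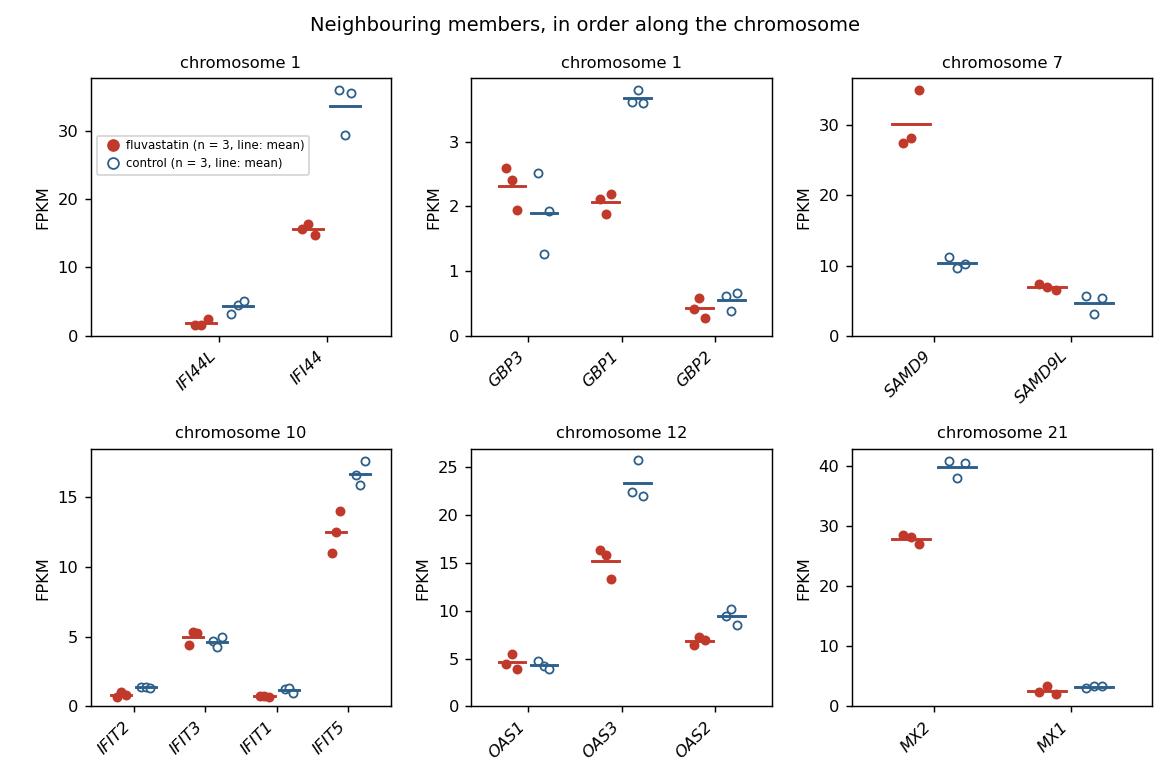
FPKM of neighbouring members in each library, in 6 chromosome segments with genes in their order along the chromosome (points: libraries, lines: means of 3, axes from 0). SAMD9 means are 30.3 and 10.3 FPKM and SAMD9L means 6.95 and 4.70 FPKM in fluvastatin and control libraries, and OAS3 and OAS2 but not OAS1 have every fluvastatin library below every control.

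The difference between neighbours was compared per library for the 10 adjacent pairs in which both genes were tested, as the difference of their log2(FPKM + 1) values. SAMD9 minus SAMD9L was 1.77, 1.88 and 2.25 in fluvastatin libraries, against 0.891, 1.38 and 0.804 in controls, a shift of 0.94. OAS1 minus OAS3 was -1.66, -1.36 and -1.55 in fluvastatin libraries, against -2.04, -2.35 and -2.24 in controls, a shift of 0.68. GBP3 minus GBP1 shifted by 0.82, IFIT2 minus IFIT3 by -0.46 and PARP9 minus DTX3L, neither of which passed, by 0.13, also without overlap between groups. For each of these 5 pairs the two-sided exact permutation p was 0.1, the smallest that 3 against 3 libraries allow, and 0.2 after adjustment over the 10 pairs, so the design cannot take them past 0.05. The other 5 pairs overlapped, among them IFI44L minus IFI44 with a shift of 0.16 (exact permutation p = 0.6).

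Other genes of the pathway, from a list of 80 written from textbook knowledge, were read beside the members. Of the 69 with a row, 57 were tested, and 14 rose (24.6%, against 14.1% of all genes tested), 7 fell (12.3%, against 13.6% of all genes tested) and 36 did not pass. Their median log2 fold change was 0.03. SOCS1, a feedback inhibitor of JAK kinases, is 1 of the 14 and reached 1 FPKM in fluvastatin libraries only. It was tested only because its treated values were high. The list was also written with earlier results of these data known, so the share that rose is given as a description. The count that fell was 2, 2, 3 and 2 without control replicate 0, control replicate 1, fluvastatin replicate 0 and fluvastatin replicate 1. The others of the 80 were not analysed here, among them the genes of interferon alpha, beta, gamma and lambda. Of the other receptor chains IL10RB, which pairs with IFNLR1 in the interferon lambda receptor, rose. These chains and SOCS1 were chosen for mention after their values were seen. IL10RB was at 8.63, 7.86 and 7.86 FPKM in fluvastatin libraries, against 6.01, 4.85 and 6.5 FPKM in controls, with no overlap. IL10RB was 1.4-fold higher (log2 fold change 0.43 ± 0.12 SE, adjusted p = 0.0346) but missed the threshold without control replicate 0 (0.0642), control replicate 1 (0.0801), fluvastatin replicate 0 (0.106), fluvastatin replicate 1 (0.076) and fluvastatin replicate 2 (0.0775); alternatives spanned 0.0233 to 0.118. IFNLR1 was at 1.65 ± 0.191 FPKM in fluvastatin libraries and 1.23 ± 0.0993 FPKM in controls (adjusted p = 0.0981). IFNGR2 was at 29.5 ± 1.23 FPKM in fluvastatin libraries and 26.4 ± 1.70 FPKM in controls (adjusted p = 0.248). IFNAR2 was at 5.29 ± 1.12 FPKM in fluvastatin libraries and 5.17 ± 1.28 FPKM in controls (adjusted p = 0.922).

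Adaptors that relay sensing to interferon genes were among those that rose. TMEM173, which encodes the DNA-sensing adaptor STING, was at 27.0, 26.5 and 27.4 FPKM in fluvastatin libraries, against 13.1, 10.5 and 9.95 FPKM in controls, 2.41-fold higher (log2 fold change 1.21 ± 0.11 SE, adjusted p = 0.00118). MAVS, the mitochondrial adaptor of RIG-I, was at 23.5, 23.7 and 23.7 FPKM in fluvastatin libraries, against 14.4, 14.6 and 12.9 FPKM in controls, 1.69-fold higher (adjusted p = 0.00227). TICAM1, the adaptor of the RNA receptor TLR3, was at 12.9, 12.4 and 11.3 FPKM in fluvastatin libraries, against 7.02, 6.80 and 6.40 FPKM in controls, 1.81-fold higher (adjusted p = 0.00217). In all 3 adaptors, named here for their small adjusted p, every treated library lay above every control, which is no further support.

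Among effectors outside the set, ZC3HAV1, the zinc-finger antiviral protein, was at 61.5, 57.7 and 64.6 FPKM in fluvastatin libraries, against 22.7, 21.2 and 20.9 FPKM in controls, 2.83-fold higher (log2 fold change 1.46 ± 0.09 SE, adjusted p = 3.02e-04). APOBEC3G, a cytidine deaminase that restricts retroviruses, was at 24.7, 27.9 and 24.9 FPKM in fluvastatin libraries, against 8.96, 11.1 and 13.3 FPKM in controls, 2.33-fold higher (adjusted p = 0.00266). The helicase HELZ2 was at 15.6, 16.4 and 12.7 FPKM in fluvastatin libraries, against 6.62, 7.0 and 7.60 FPKM in controls, 2.10-fold higher (adjusted p = 0.00251). In these 3 effectors, also named for their small adjusted p, the lowest treated library lay well above the highest control. TDRD7, a tudor-domain protein, was at 7.5, 7.14 and 8.34 FPKM in fluvastatin libraries, against 4.38, 4.75 and 5.11 FPKM in controls, 1.61-fold higher (adjusted p = 0.00691). PNPT1, a mitochondrial RNA exonuclease, was at 32.3, 35.0 and 32.3 FPKM in fluvastatin libraries, against 71.9, 54.0 and 60.2 FPKM in controls, 1.87-fold lower (adjusted p = 0.00402). IFNE, interferon epsilon, was the one interferon gene with a row among those listed. It was at 8.39, 3.97 and 4.43 FPKM in fluvastatin libraries, against 1.53, 2.01 and 2.27 FPKM in controls. Fluvastatin replicate 0 stood above the others, and all 3 lay above the controls. IFNE was 2.89-fold higher (log2 fold change 1.12 ± 0.25 SE, adjusted p = 0.0195) but did not pass without control replicate 0 (0.0529), without a filter (0.0587), with the replicate block (0.051) and with depth as a covariate (0.151). CXCL9, CXCL10 and CXCL11 are chemokines that respond to interferon gamma and were chosen here after their values were seen. They were listed at 0 in every control and in fluvastatin replicates 0 and 2. In fluvastatin replicate 1, the deepest library, they were at 0.0166, 0.0433 and 0.0628 FPKM.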

How the data were processed

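RNA-seq of 6 libraries, 3 treated and 3 untreated, was analysed. STAR, Cufflinks, Cuffdiff and hg38 are listed in the submitters' processing notes; versions, annotation and strand setting are not given in the sources used here. The authors' deposited values name no unit and were taken as FPKM, with sums per library of 686133.2 to 729564.0. Members were matched by symbol, with coordinates from GENCODE release 29 (GRCh38). Near-identical paralogs and overlapping genes may share reads.

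The test was limma 3.58.1 (R 4.3.3) applied to log2(FPKM + 1) of genes reaching 1 FPKM in 3 or more libraries (eBayes, trend and robust off, two-sided, Benjamini-Hochberg over all genes). Means, SDs and folds use FPKM; log2 fold changes use log2(FPKM + 1), which understates changes of low genes. On simulated data (14344 genes) the fit recovered 34%, 70%, 98% and 98% of genes with simulated log2 changes of 0.5, 1, 2 and 3. Of its 155 calls 5 were false. The changed genes, 50 at each size, all had a mean log2(FPKM + 1) above 2, and IFIT2, XAF1, DDX58 and GBP1 lie below that. Far fewer genes were changed than the 3971 called in the data, so these rates are not the power for the members. Relative depth is the most frequent ratio of low values between a library and control replicate 0.

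The members and lists were chosen with earlier results of these data known. Members past the threshold and all signalling members are given in every library, along with the 8 list genes of smallest adjusted p and the interferon ligands; others are given by mean, range or count. The alternatives tried were another pseudocount, 2 other filters, 2 scalings, another variance model, a replicate block, depth as a covariate and leaving out each library.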

Additional observations from a re-analysis of the deposited data

How the results depend on the processing

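With the relative depth of each library as a covariate, 61 genes of the table passed, against 3971 without it, and 0 members rose, 0 fell, and 0 and 0 of the other interferon genes did; all 16 members called kept their direction. Without a filter 3 members rose, and 4 of the other interferon genes fell. At a mean of at least 5 FPKM 5 members fell, a setting that tests only 5 of the 10. With the replicate block 6 members and 4 other interferon genes fell, and 3154 genes passed in all. Deviations from the group mean correlated at -0.0015, 0.0845 and 0.0842 between same-numbered libraries. Between differently numbered libraries the correlations ran from -0.1364 to 0.0579. With 3 libraries a group, these values cannot settle whether the numbers mark a pairing. Leaving out 1 library gave 2277 to 3483 genes past the threshold, 2 to 6 members that rose, 5 to 8 that fell, 10 to 12 other interferon genes that rose and 2 to 7 that fell. The remaining counts, with a pseudocount of 0.1, both scalings, or trend and robust on, stayed within 1.5 times the reported ones. No called member changed sign in any alternative. The median log2 fold change of the members, reported as 0.07, lay between -0.02 without a filter and 0.10. The cause of these shifts was not tested. Fragments per FPKM are unknown, so the precision of low members cannot be given.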
